A study of Mus musculus with 6 samples.

Results

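Splenic CD4 T cells labelled as unresponsive to Notch (OFF) were compared with mature wild-type CD4 T cells by bulk RNA sequencing, across protein-coding genes. The comparison uses 4 of the 6 libraries of the series, 2 in each group, and 12667 protein-coding genes with enough counts to test, of 47729 genes in the count table. Spleen was the source of every library, and each cell fraction was sorted as CD3-positive, CD4-positive and CD25-negative. The WT libraries came from wild-type mice labelled as given doxycycline (Dox), and their cells were in the CD45RB-high gate of mature naive T cells. The OFF libraries came from RBPJind mice kept on Dox for 3 weeks and then off it for 1 week, and their cells were in the CD45RB-intermediate gate of immature naive T cells. Another group, ON, came from RBPJind mice given Dox for 4 weeks and from that same intermediate gate. Its 2 libraries are used here for levels and tests against OFF, set beside the OFF and WT comparison. They also enter the shared filter, scaling and estimate of spread. The labels do not list the alleles that make up RBPJind, the cells in which they act, or the ages of the mice, and give no length of Dox treatment for the WT mice. OFF and WT differ in genotype, in sort gate and in Dox history at once, and effects of the 3 cannot be told apart. Nothing in the labels ties the replicates to separate animals, and the spread behind each p-value may therefore be technical.

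Notch receptors are cut after they bind a ligand, and the freed intracellular part joins the DNA-binding protein RBPJ and a Mastermind coactivator to switch on target genes. In the thymus this signal commits progenitors to the T cell lineage. New T cells leave the thymus immature and finish maturing in the spleen and lymph nodes, a step during which CD45RB, the receptor IL-7Rα and the complement-protecting protein CD55 are known to rise. Activated, memory and regulatory CD4 T cells also carry less CD45RB than resting naive cells, so an intermediate gate does not by itself exclude them.

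Rbpj itself was near the wild-type level in OFF cells. Its level was 36.1 and 35.3 CPM (a gene's counts scaled to its library's effective size) in the WT libraries, 98.2 and 79.6 CPM in the ON libraries, and 29.8 and 31.7 CPM in the OFF libraries. The OFF values lay slightly below the WT values without overlap, with a log2 fold change of -0.22 ± 0.14 (standard error) that did not pass the test (edgeR adjusted p = 0.422). Against ON, Rbpj in OFF fell by 1.53 on the log2 scale (edgeR adjusted p = 0.00195). Counts per gene do not separate an induced Rbpj transcript from the endogenous one, and the labels do not say which part of Rbpj the alleles change, so these counts are no check of RBPJ function. Rbpj-ps3, an intron-less pseudogene copy of the spliced Rbpj transcript, was at 0.359 and 0.174 CPM in WT, 46.9 and 36.1 CPM in ON, and 1.73 and 2.70 CPM in OFF. It was named after its values were seen. In OFF it was far below ON (log2 fold change -4.23, edgeR adjusted p = 0.000292) and above WT (3.03 ± 0.54, edgeR adjusted p = 0.0119), although leaving out WT 1, WT 2 or OFF 2 ended the call against WT, at an adjusted p of up to 0.0843. Reads from the spliced Rbpj sequence and from this copy may not be separable in such counts.

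No tested gene of the Notch machinery was called between OFF and WT, while some reported targets were higher. None of the 26 tested genes for Notch receptors, ligands and their machinery, Rbpj among them, passed the edgeR test in either direction; 2 had an unadjusted p under 0.05, and neither DESeq2 nor limma-voom called any. Their log2 fold changes ran from -1.05, for the receptor gene Notch4 with a mean of 1.71 CPM in WT and 0.823 CPM in OFF, to 0.34 for Notch2, and a miss of the threshold does not show that these levels are alike. Notch1, the main receptor of T cells, was at 255 and 321 CPM in WT and 370 and 320 CPM in OFF, and its groups overlapped. Dtx1, a direct Notch target of T cells that encodes a ubiquitin ligase, was at 198 CPM in both WT libraries, 492 and 562 CPM in ON, and 195 and 145 CPM in OFF. Its difference from WT did not pass (log2 fold change -0.22 ± 0.15, edgeR adjusted p = 0.457), while that from ON did (-1.63, edgeR adjusted p = 0.00234). Hes1, another target, had too few counts to test, with 6 counts in all in WT and 6 in OFF. Of 10 tested genes reported elsewhere as Notch targets in T cells, 3 rose in OFF over WT, against 5.6% of all tested protein-coding genes: Il2ra, Ifng and Gata3. Il2ra, which encodes the CD25 that the sort selected against, was at 4.19 and 4.65 CPM in WT, 27.7 and 24.9 CPM in ON, and 25.3 and 28.8 CPM in OFF, a rise of 2.61 ± 0.18 over WT (edgeR adjusted p = 0.000173). Leaving out WT 1, WT 2 or OFF 2 ended the calls of Ifng and Gata3 (adjusted p up to 0.126 and 0.338).

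Across protein-coding genes, OFF cells had 709 genes higher than WT and 290 lower (edgeR quasi-likelihood test, adjusted p under 0.05 over all genes of the table). These are 5.6% and 2.29% of the 12667 tested genes, and 3134 genes had an unadjusted p under 0.05. The OFF and WT libraries were free of overlap in each of the 999 called genes and in 59.3% of all tested genes. A lack of overlap therefore adds no support to a call. By the same rule 104 genes (0.821%) differed between OFF and ON. Both contrasts share the OFF libraries, so their values are only set side by side. The median log2 fold change over all tested genes was 0.03. The genes called higher had a median of 1.79 and were mostly well measured: 581 of 709 had a mean of at least 5 CPM in OFF. The genes called lower had a median of -2.73, but 187 of 290 had a mean under 5 CPM in WT, and the 103 at or above 5 CPM had a median of -0.97. The count of calls rested on few libraries. It was 212 without WT 1, 211 without WT 2, 775 without OFF 1 and 322 without OFF 2.

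**Figure D1:**
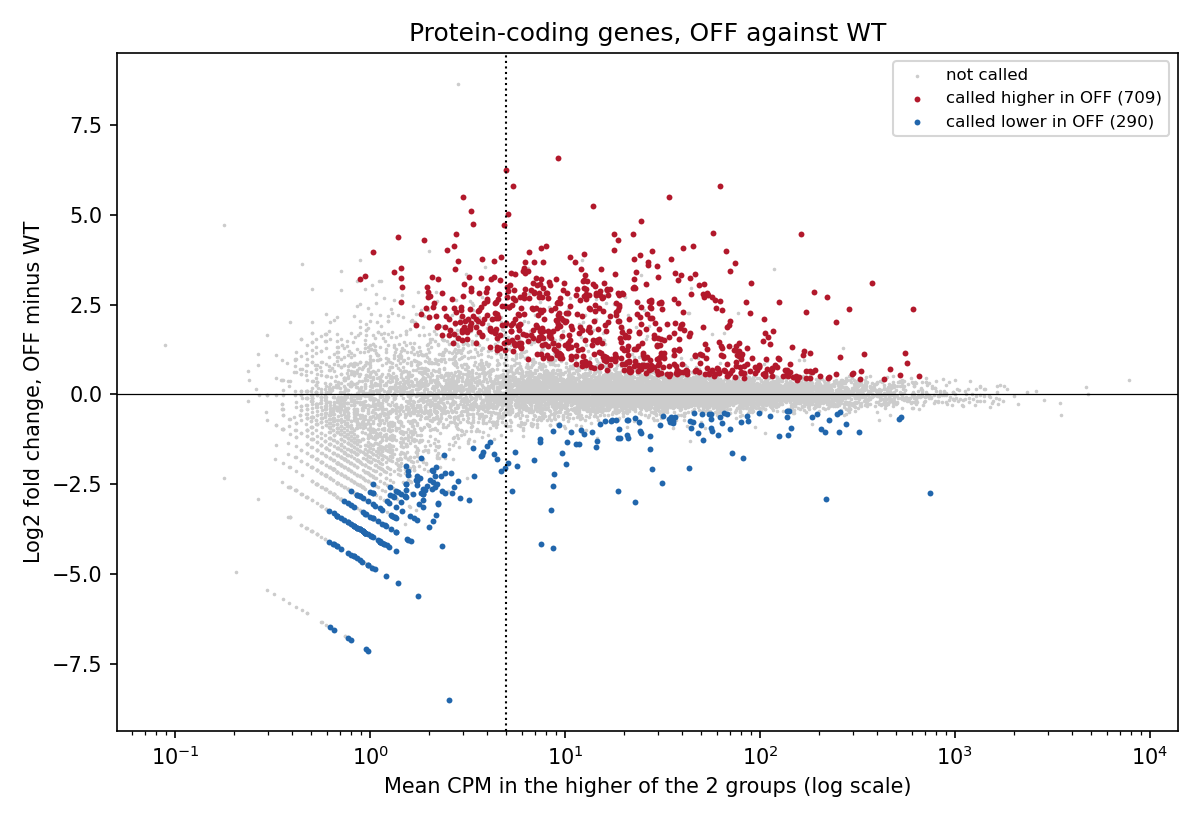
Each point is 1 protein-coding gene, with its mean level in the higher of the OFF and WT groups (CPM, log axis) against the log2 fold change of OFF over WT. Red points are the 709 genes called higher in OFF, blue points the 290 called lower, and grey points were not called. The dotted line marks 5 CPM; most blue points lie to its left and most red points to its right.

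The libraries were of like depth but not of like breadth. Counts in genes ranged from 17025551 to 18043797 over the 4 libraries compared, from 44135788 to 50779120 reads. In WT, 33138 and 30592 genes had at least 1 count, against 24210 and 25061 in OFF. Genes called lower also had long exon sets, with a median of 7025 exon bases against 4680 over all tested genes and 4606 for the genes called higher. The part that library breadth had in the low-level falls was not tested.

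Genes of T cell identity were expressed in both groups. Of 15 genes for the T cell receptor complex and its partners, only Cd5 passed the edgeR test, while DESeq2 called 2 higher. The log2 fold change was positive for 14 of the 15, with a median of 0.22 and a highest value of 0.57, and 5 had an unadjusted p under 0.05, all higher in OFF. Cd4 was at 644 and 604 CPM in WT and 649 and 702 CPM in OFF (edgeR adjusted p = 0.636). Cd3e was at 328 and 307 CPM in WT and 357 and 427 CPM in OFF (edgeR adjusted p = 0.19). Ptprc, the CD45 gene whose isoforms the sort read through CD45RB, differed by 0.14 on the log2 scale (edgeR adjusted p = 0.598), and none of 19 genes in a list of CD45 and its exon-splicing regulators was called (2 at an unadjusted p under 0.05, 0 by DESeq2, 0 by limma-voom). Gene counts do not resolve the CD45 isoforms. Cd5, an inhibitor of T cell receptor signals whose level follows the strength of self-recognition, was at 222 and 178 CPM in WT and 276 and 317 CPM in OFF. Its rise of 0.57 ± 0.14 (edgeR adjusted p = 0.0443) did not pass with WT 1, WT 2 or OFF 2 left out (highest adjusted p 0.247).

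Many genes used as markers of cell types other than CD4 T cells were higher in OFF, and this stands beside every rise given below. The B cell list was called higher in 16 of 17 tested members (94.1%, against 5.6% of all genes). Its summed level was 271 and 240 CPM in WT, 639 and 527 CPM in ON, and 595 and 736 CPM in OFF. Antigen-presentation genes made up most of that sum in OFF, and Ighm in WT. Cd74, the chaperone of MHC class II, was at 29.9 and 22.3 CPM in WT and 172 and 208 CPM in OFF (log2 fold change 2.86 ± 0.17, edgeR adjusted p = 7.04e-05). H2-Ab1, a class II chain, was at 11.7 and 9.13 CPM in WT and 81.5 and 98.1 CPM in OFF (3.11 ± 0.18, edgeR adjusted p = 5.05e-05). Ighm, the constant region of the IgM heavy chain, was at 194 and 177 CPM in WT and 179 and 206 CPM in OFF. Myeloid and dendritic cell markers were higher in 8 of 17 (47.1%). Their sums were 46.9 and 39.7 CPM in WT and 135 and 151 CPM in OFF. Of the 17, 15 had a positive log2 fold change, and the lowest was -3.96. At an unadjusted p under 0.05, 14 were higher and 2 lower. Cd14 went from 10 and 9 counts in WT to 1 and 0 in OFF. Csf1r was at 2.69 and 2.38 CPM in WT and 2.60 and 3.73 CPM in OFF. Mpeg1, a pore-forming protein of macrophages, was at 2.69 and 2.44 CPM in WT, 7.87 and 17.8 CPM in ON, and 33.5 and 36.7 CPM in OFF (3.77 ± 0.37, edgeR adjusted p = 0.000958). CD8 T cell markers summed to 43.4 and 33.5 CPM in WT and 124 and 174 CPM in OFF, with 4 of 7 higher (57.1%). The 4 were Cd8a, Ccl5, Eomes and Gzmk, and Ccl5 and Eomes are also given below as memory and effector genes. In OFF, Ccl5 was at 57.9 and 90.7 CPM and Eomes at 41.4 and 47.4 CPM, most of that sum. The other 3 members were not called, and none had a positive log2 fold change. The 2 chains of the CD8 coreceptor, which defines these cells, differed: Cd8a was at 0.419 and 1.28 CPM in WT and 3.06 and 4.09 CPM in OFF (2.05 ± 0.45, edgeR adjusted p = 0.0286), though not with WT 1 or OFF 2 left out (up to 0.216). Cd8b1 was at 14.0 and 12.6 CPM in WT and 11.1 and 13.9 CPM in OFF and was not called. Killer and innate-like T cell markers were higher in 3 of 10 (30%), with a median log2 fold change of 2.02. Their sums were 57.4 and 41.5 CPM in WT and 140 and 210 CPM in OFF. The 3 were Il2rb, which memory T cells also express, and the signalling adaptors Fcer1g (log2 fold change 2.12) and Tyrobp (2.12). Of the other 7, which were not called, 5 had a positive log2 fold change, and Klrb1c and Zbtb16 had a negative one. Without WT 1 or WT 2 the list kept 1 call. No tested erythroid marker passed by edgeR, DESeq2 or limma-voom, and none had an unadjusted p under 0.05. Of 8 stromal markers Pdgfra was lower, though not with WT 1, WT 2, OFF 1 or OFF 2 left out (up to 0.13). No B cell, myeloid, CD8, killer or erythroid marker in the table was at 0 in all 4 libraries, and 1 stromal marker was. In bulk samples, more cells of a type and more RNA per cell cannot be told apart. The part of these markers in the results was not tested. Without WT 2 the B cell list kept 5 calls, without WT 1 the myeloid list kept 3, and without WT 1 or OFF 2 the CD8 list kept 2.

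**Figure D2:**
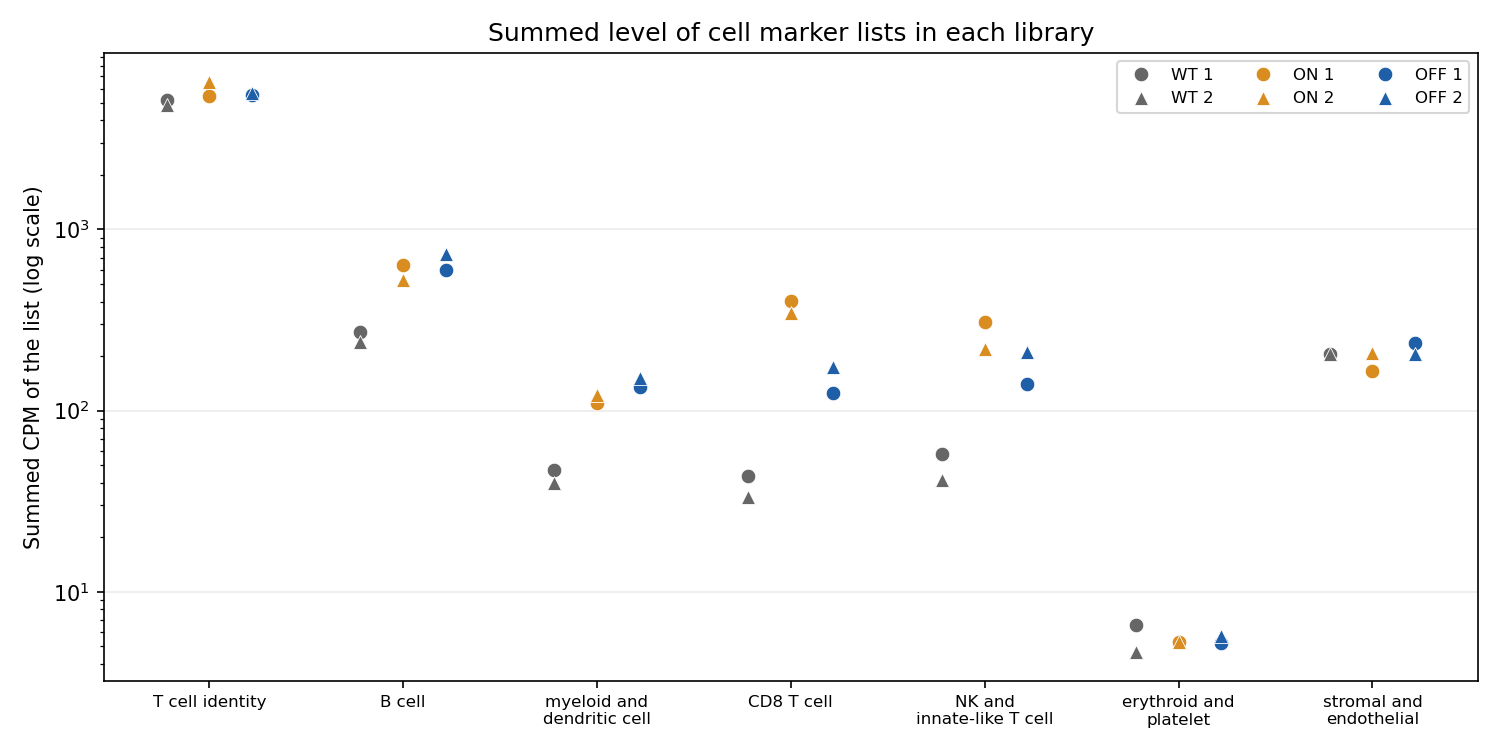
Summed CPM (log axis) of each list of cell markers in the 6 libraries; grey is WT, orange ON and blue OFF, with circles for replicate 1 and triangles for replicate 2. The T cell identity sums sit close together, while the B cell, myeloid, CD8 and innate-like sums are higher in both OFF libraries than in both WT libraries.

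Genes that mark the mature naive state gave a mixed picture. Of 21 tested genes known to rise as naive T cells mature, 3 were lower in OFF, 3 were higher, and 15 were not called. The median log2 fold change was 0.14. Each share was 14.3%, beside 2.29% lower and 5.6% higher over all genes. Cd55, which protects cells from complement and lies on chromosome 1 at 130439027-130462744 (GRCm38), was at 75.7 and 68.4 CPM in WT, 12.7 and 14.2 CPM in ON, and 20.4 and 25.9 CPM in OFF. Both OFF libraries were far below both WT libraries, a fall of -1.64 ± 0.15 (edgeR adjusted p = 0.00051). Il7r, the receptor chain for the survival cytokine IL-7, was at 358 and 285 CPM in WT, 115 and 159 CPM in ON, and 169 and 142 CPM in OFF (-1.05 ± 0.18, edgeR adjusted p = 0.0101). Ly6c1, a surface protein of resting peripheral T cells, was at 28.5 and 26 CPM in WT and 14.5 and 9.80 CPM in OFF (-1.16 ± 0.21, edgeR adjusted p = 0.0131). Its near copy Ly6c2 moved the other way, from a mean of 2.37 to 9.24 CPM, and reads of the pair may be split uncertainly. H2-Q6, a non-classical MHC class I gene with near copies, was at 84.8 and 79.2 CPM in WT, 214 and 194 CPM in ON, and 193 and 169 CPM in OFF (1.14 ± 0.12, edgeR adjusted p = 0.00109). The fall of Il7r was lost without WT 1 (adjusted p = 0.104) and that of Ly6c1 without WT 1, WT 2 or OFF 2 (up to 0.115), while the calls of Cd55 and H2-Q6 held with each library left out.

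The core of the naive program was not called. Klf2, the transcription factor that keeps naive T cells quiescent and recirculating, was at 290 and 252 CPM in WT, 176 and 183 CPM in ON, and 253 and 269 CPM in OFF, and OFF and WT overlapped (edgeR adjusted p = 0.85). S1pr1, the receptor for exit into blood and a Klf2 target, was at 372 and 344 CPM in WT and 373 and 413 CPM in OFF (edgeR adjusted p = 0.577). Ccr7, the chemokine receptor for the T cell zone, was at 229 and 213 CPM in WT and 189 and 176 CPM in OFF (-0.28 ± 0.15, edgeR adjusted p = 0.325). Misses of the threshold do not show that these levels are alike. Of 19 regulators of quiescence tested, Il7r was the 1 lower and Id3 the 1 higher, which is 5.26% in each direction beside 2.29% lower and 5.6% higher over all genes. Id3, an inhibitor of E proteins, was at 9.15 and 13.6 CPM in WT and 21.5 and 38.0 CPM in OFF (1.38 ± 0.29, edgeR adjusted p = 0.0268), though not with WT 1, WT 2 or OFF 2 left out (up to 0.193). None of the 8 Gimap GTPases, survival genes of naive T cells, was called by edgeR, DESeq2 or limma-voom, and 4 had an unadjusted p under 0.05. Cxcr4, the receptor for the retention chemokine CXCL12, was lower, at 59.7 and 52.1 CPM in WT, 17.9 and 17.8 CPM in ON, and 32.0 and 26.6 CPM in OFF (-0.93 ± 0.14, edgeR adjusted p = 0.00588), though not with WT 1 left out (0.095).

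Genes of thymocytes and recent thymic emigrants were often higher in OFF, in 13 of 22 tested members (59.1%, against 5.6% of all genes), with 1 lower, Cd2ap, and a median log2 fold change of 1.00. At an unadjusted p under 0.05, 13 were higher and 3 lower, and DESeq2 called 13 higher and 2 lower. Myb, a transcription factor of thymocyte progenitors, was at 35.7 and 34.5 CPM in WT, 111 and 97.0 CPM in ON, and 168 and 176 CPM in OFF. OFF was 4.90-fold above WT (2.29 ± 0.13, edgeR adjusted p = 4.31e-05), and OFF was also called above ON (0.73, edgeR adjusted p = 0.0263). Sox4, a transcription factor of immature T cells, was at 29.0 and 20.3 CPM in WT, 45.8 and 51.2 CPM in ON, and 88.7 and 121 CPM in OFF. It rose over WT by 2.09 ± 0.20 (edgeR adjusted p = 0.000573) and over ON by 1.11 (edgeR adjusted p = 0.0365). Nrgn, which encodes the calmodulin-binding protein neurogranin, was at 1.14 and 0.581 CPM in WT, 2.71 and 2.18 CPM in ON, and 9.36 and 13.2 CPM in OFF. It was called above both, by 3.71 ± 0.37 over WT (edgeR adjusted p = 0.00067) and 2.20 over ON (edgeR adjusted p = 0.0106). Tox, a factor for CD4 lineage development and for chronic stimulation, was at 59.2 and 58.2 CPM in WT, 120 and 97.2 CPM in ON, and 119 and 172 CPM in OFF (1.31 ± 0.18, edgeR adjusted p = 0.00338). Cd24a, a surface protein that falls as thymocytes mature, was at 1.02 and 1.57 CPM in WT and 5.31 and 14.2 CPM in OFF (2.90 ± 0.57, edgeR adjusted p = 0.0217), though not with WT 1 or WT 2 left out (up to 0.207). The gene for the recombination-linked enzyme TdT, Dntt, did not follow them, at 9.33 and 11.7 CPM in WT and 7.91 and 5.35 CPM in OFF. Nor did Rag1, Rag2 and Ptcra, which had few counts. Rag1 had 9 and 1 counts in WT and 5 and 3 in OFF. Rag2 had 3 and 5 counts in WT, Ptcra had 2 and 0, and both had 0 in each OFF library. Several members, such as Ikzf2, Id3 and Ccr4, are also expressed by activated or regulatory T cells. The calls of Myb, Sox4, Nrgn and Tox held with each library left out, and the list kept 4 of its 13 calls without WT 1.

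**Figure D3:**
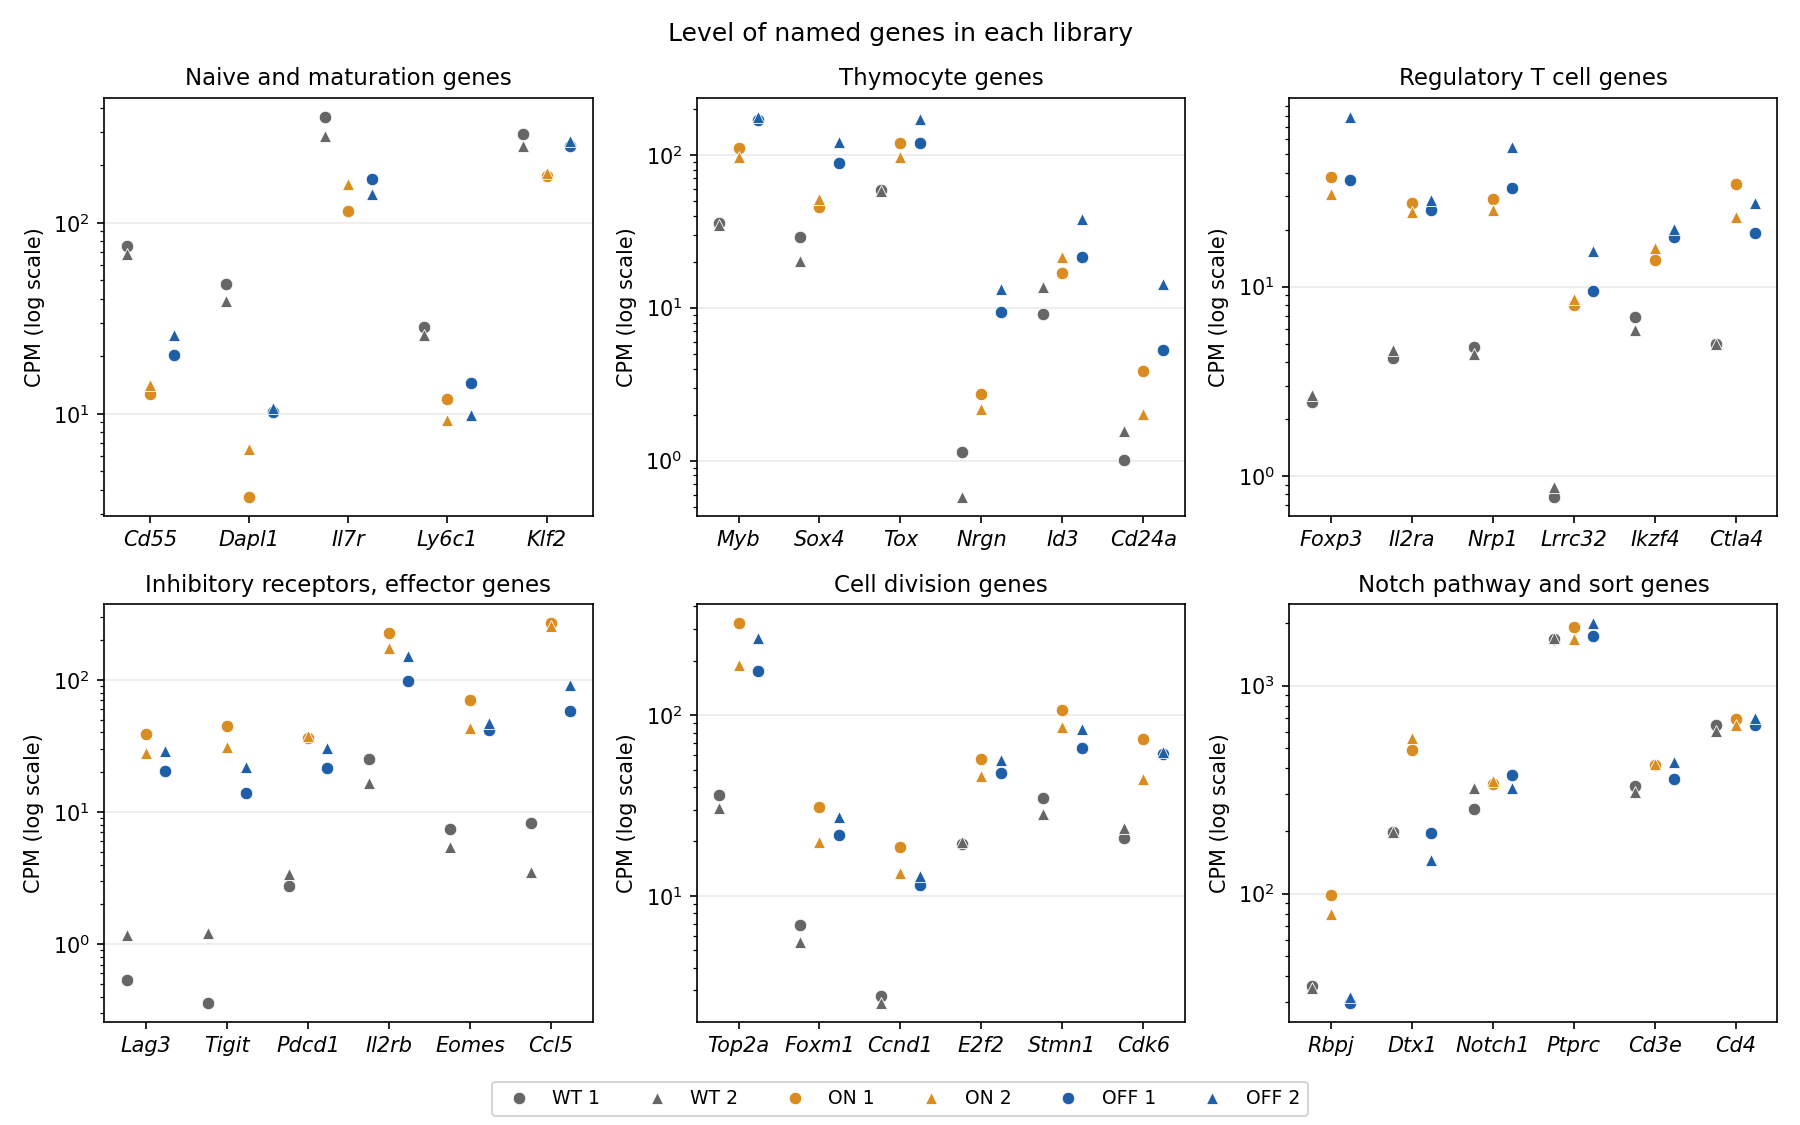
Level of named genes in each of the 6 libraries (CPM, log axis), in 6 panels by role; grey is WT, orange ON and blue OFF, with circles for replicate 1 and triangles for replicate 2. OFF lies below WT for Cd55, Dapl1, Il7r and Ly6c1, above it for the thymocyte, regulatory, inhibitory and division genes, and near it for Rbpj, Dtx1, Ptprc and Cd4.

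Regulatory T cell genes formed 1 of the most affected groups. Of 20 tested, 14 were higher (70%, against 5.6% of all genes) and none lower by edgeR, with a median log2 fold change of 2.47. At an unadjusted p under 0.05, 18 were higher and 1 lower, and DESeq2 called 15 higher and 1 lower. Foxp3, the lineage factor of regulatory T cells, on chromosome X at 7573644-7595245, was at 2.45 and 2.67 CPM in WT, 38.0 and 30.8 CPM in ON, and 36.6 and 78.7 CPM in OFF. The lowest OFF library was far above both WT libraries, for a rise of 4.49 ± 0.42 or 22.4-fold (edgeR adjusted p = 0.00168), while OFF against ON was not called (0.74, edgeR adjusted p = 0.262). Ikzf2, which encodes Helios and is high in thymus-derived regulatory cells, was at 8.19 and 6.63 CPM in WT, 109 and 55.1 CPM in ON, and 107 and 219 CPM in OFF (4.46 ± 0.49, edgeR adjusted p = 0.0045). Lrrc32, the docking protein for latent TGF-beta, was at 0.778 and 0.872 CPM in WT and 9.47 and 15.5 CPM in OFF (3.91 ± 0.37, edgeR adjusted p = 0.000515). Nrp1, a semaphorin receptor of these cells, was at 4.78 and 4.42 CPM in WT and 33.3 and 54.4 CPM in OFF (3.25 ± 0.26, edgeR adjusted p = 0.000208). Ikzf4, which encodes Eos, a partner of Foxp3, was at 6.94 and 5.87 CPM in WT and 18.3 and 20.1 CPM in OFF (1.58 ± 0.19, edgeR adjusted p = 0.00156). Ctla4, the inhibitory receptor for CD80 and CD86, was at 4.96 and 5 CPM in WT and 19.2 and 27.8 CPM in OFF (2.24 ± 0.27, edgeR adjusted p = 0.00168). Il10, for the suppressive cytokine, was at 0.179 and 0.233 CPM in WT, 14.3 and 9.86 CPM in ON, and 1.68 and 2.46 CPM in OFF, so that it was called above WT (edgeR adjusted p = 0.0175) and below ON (-2.54, edgeR adjusted p = 0.00639). The summed level of the list was 446 CPM in OFF 1 and 768 CPM in OFF 2, against 160 and 128 CPM in WT. The Ikzf2 call was lost without WT 1 or WT 2 (up to 0.139) and the Il10 call against WT without WT 1, WT 2 or OFF 2 (up to 0.132), and the list kept 9 calls without either WT library.

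Inhibitory receptors and genes induced by T cell receptor signals moved the same way. Of 18 inhibitory receptor genes, 9 were higher (50%, against 5.6% of all genes) and none lower. Lag3, which binds MHC class II, was at 0.538 and 1.16 CPM in WT, 39.2 and 27.8 CPM in ON, and 20.4 and 29.0 CPM in OFF (4.84 ± 0.36, edgeR adjusted p = 0.000173). Pdcd1, which encodes PD-1, was at 2.75 and 3.37 CPM in WT, 36.5 and 37.4 CPM in ON, and 21.7 and 30.5 CPM in OFF (3.08 ± 0.23, edgeR adjusted p = 0.000173). Tigit was at 0.359 and 1.22 CPM in WT, 44.7 and 31.1 CPM in ON, and 13.9 and 21.9 CPM in OFF (4.48 ± 0.44, edgeR adjusted p = 0.000811). None of the 3 was called between OFF and ON. Of 28 early response genes of the T cell receptor, 12 were higher (42.9%) and none lower, with a smaller median log2 fold change of 0.51. Nr4a1, the immediate early nuclear receptor often used to report receptor signals, was at 38.2 and 36.2 CPM in WT, 64.7 and 75.5 CPM in ON, and 97.2 and 110 CPM in OFF (1.48 ± 0.13, edgeR adjusted p = 0.000442). Egr2, a factor tied to self-recognition and anergy, was at 10.8 and 10.5 CPM in WT and 26.1 and 36.3 CPM in OFF (1.55 ± 0.19, edgeR adjusted p = 0.00168). Irf4, whose level follows signal strength, was at 6.76 and 7.73 CPM in WT and 23.9 and 34.3 CPM in OFF (2.0 ± 0.22, edgeR adjusted p = 0.00116). Fos, a subunit of AP-1, was at 34.9 and 39.4 CPM in WT, 49.0 and 44.0 CPM in ON, and 77.7 and 79.3 CPM in OFF, above both groups by the test (edgeR adjusted p = 0.00156 and 0.0287). Of 22 genes of anergy and self-reactivity, 11 were higher (50%) and 1 lower (4.55%, against 2.29% of all genes). Izumo1r, the folate receptor 4 of anergic and regulatory cells, was at 42.6 and 31.7 CPM in WT and 75.2 and 86.2 CPM in OFF (1.12 ± 0.16, edgeR adjusted p = 0.00365). Of 25 proximal T cell receptor genes only the adaptor Sla was higher, and of 22 NF-kB genes only Relb, shares no larger than that over all genes, neither with WT 1, WT 2 or OFF 2 left out, nor Relb with OFF 1 left out (up to 0.146 and 0.365). The calls against WT of the 8 genes with levels given above held with each library left out; the inhibitory receptor list kept 6 calls without WT 2, the early response list 5 without WT 1, and the anergy list 4 without WT 1 or WT 2.

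Effector and memory genes were higher in 21 of 30 tested members (70%, against 5.6% of all genes) and lower in none by edgeR. The median log2 fold change was 2.58, and 1 member was lower at an unadjusted p under 0.05. Eomes, a transcription factor of memory T cells, was at 7.42 and 5.41 CPM in WT, 70.8 and 43.1 CPM in ON, and 41.4 and 47.4 CPM in OFF (2.79 ± 0.26, edgeR adjusted p = 0.000575). Il2rb, the shared receptor chain for IL-2 and IL-15, was at 25.1 and 16.5 CPM in WT, 227 and 173 CPM in ON, and 97.2 and 153 CPM in OFF (2.59 ± 0.28, edgeR adjusted p = 0.00254). Ccl5, a chemokine of memory cells, was at 8.19 and 3.49 CPM in WT, 268 and 254 CPM in ON, and 57.9 and 90.7 CPM in OFF. In OFF it was called above WT (3.67 ± 0.37, edgeR adjusted p = 0.00242) and below ON (-1.81, edgeR adjusted p = 0.0494). The chemokine Ccl4 was almost absent from WT, with 2 counts in all against 169 in OFF. That is a ratio of 84.4 with a 95% exact counting interval of 23 to 703, and its level in ON was 21.6 and 17.7 CPM. Gzmb, the cytotoxic protease granzyme B, was the most variable of those named, at 1.44 and 0.756 CPM in WT, 226 and 77.7 CPM in ON, and 29.9 and 94.6 CPM in OFF (5.82 ± 1.10, edgeR adjusted p = 0.049). Leaving out any library but ON 1 ended its call (up to 0.343). Cd44, the classical activation marker, was at 46.5 and 33.5 CPM in WT and 64.5 and 94.9 CPM in OFF (0.99 ± 0.20, edgeR adjusted p = 0.0231), though not with WT 2 or OFF 2 left out (up to 0.131). The list summed to 400 and 309 CPM in WT and to 786 and 1464 CPM in OFF, with OFF 2 the higher, and it kept 4 calls without WT 2.

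Follicular helper and other helper-lineage genes were also higher, in 10 of 18 and 10 of 19 tested members, with none lower by edgeR. These shares were 55.6% and 52.6%, against 5.6% of all genes. At an unadjusted p under 0.05, 15 follicular members were higher and 2 lower, and DESeq2 called 13 higher and 1 lower. Cxcr5, the receptor for the B cell follicle, was at 5.5 and 5.70 CPM in WT, 16.0 and 15.1 CPM in ON, and 18.0 and 34.7 CPM in OFF (2.23 ± 0.30, edgeR adjusted p = 0.00313). Maf, a factor for IL-10 and IL-21, was at 11.2 and 10.8 CPM in WT, 90.8 and 74.7 CPM in ON, and 29.1 and 43.0 CPM in OFF. It was called above WT (1.71 ± 0.20, edgeR adjusted p = 0.00168) and below ON (-1.20, edgeR adjusted p = 0.021). Il12rb1, a receptor chain for IL-12 and IL-23, was at 4.13 and 4.19 CPM in WT and 13.6 and 18.4 CPM in OFF (1.94 ± 0.29, edgeR adjusted p = 0.00496). Among TNF family and costimulatory receptors, 10 of 32 were higher (31.25%). Tnfrsf9, which encodes 4-1BB, was at 6.04 and 5.58 CPM in WT and 35.3 and 61.8 CPM in OFF (3.06 ± 0.34, edgeR adjusted p = 0.00229). Tnfrsf4, which encodes OX40, was at 8.13 and 7.85 CPM in WT, 41.3 and 35.1 CPM in ON, and 18.4 and 20.7 CPM in OFF, above WT (1.29 ± 0.17, edgeR adjusted p = 0.00254) and below ON (-0.97, edgeR adjusted p = 0.0219). These 5 calls against WT held with each library left out, while the follicular list kept 4 calls without WT 2, the helper list 3 without WT 2 or OFF 2, and the TNF list 2 without either WT library.

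Receptors for migration and adhesion differed in part. Of 20 chemokine receptor genes, 10 were higher and 1, Cxcr4, was lower. Of 26 integrin chains 6 were higher and 2, Itgb6 and Itga8, lower. The shares were 50% and 5% for chemokine receptors and 23.1% and 7.69% for integrins, beside 5.6% and 2.29% over all genes. Itga9, the integrin alpha 9 chain, was at 3.47 and 2.27 CPM in WT, 7.31 and 5.65 CPM in ON, and 18.7 and 25.9 CPM in OFF. It was called above WT (2.96 ± 0.28, edgeR adjusted p = 0.000515) and above ON (1.78, edgeR adjusted p = 0.0109). Itgal, the LFA-1 alpha chain, was at 282 and 293 CPM in WT, 571 and 587 CPM in ON, and 449 and 485 CPM in OFF (0.70 ± 0.11, edgeR adjusted p = 0.00769). Itgb1 was at 71.4 and 50 CPM in WT and 145 and 344 CPM in OFF (2.01 ± 0.42, edgeR adjusted p = 0.0395). Enzymes that build sialic acid and other glycan chains were higher in 8 of 33 (24.2%) and lower in 2 (6.06%). Chst3, a sulfotransferase of chondroitin chains, was at 0.837 and 1.16 CPM in WT, 4.60 and 6.69 CPM in ON, and 19.7 and 24.9 CPM in OFF. It was among the clearest differences, called over WT by 4.46 ± 0.31 (edgeR adjusted p = 0.000173) and over ON by 1.98 (edgeR adjusted p = 0.00639). St8sia6, a sialyltransferase, was lower, at 152 and 137 CPM in WT, 39.2 and 55.0 CPM in ON, and 77.8 and 73.3 CPM in OFF (-0.94 ± 0.16, edgeR adjusted p = 0.00971). The calls of Itgal and St8sia6 were lost without WT 1 or WT 2 (up to 0.126 and 0.1), and that of Itgb1 without WT 1, WT 2, ON 1, ON 2 or OFF 2 (up to 0.266). The chemokine receptor and glycan lists each kept 1 higher call without WT 2 or OFF 2, and the integrin list 2 without either WT library. Neither lower integrin call held without WT 1, WT 2, OFF 1 or OFF 2.

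Cell division genes were higher as a group. Of 38 tested proliferation genes, 25 were higher (65.8%, against 5.6% of all genes) and none lower. All 38 had a positive log2 fold change, and the median was 2.09. Top2a, the topoisomerase of dividing cells, was at 36.2 and 30.5 CPM in WT, 322 and 188 CPM in ON, and 175 and 268 CPM in OFF (2.73 ± 0.31, edgeR adjusted p = 0.00345). Foxm1, a transcription factor for mitotic genes, was at 6.94 and 5.58 CPM in WT, 31.0 and 19.9 CPM in ON, and 21.7 and 27.3 CPM in OFF (1.97 ± 0.25, edgeR adjusted p = 0.00249). Ccnd1, cyclin D1 of early cell cycle entry, was at 2.81 and 2.56 CPM in WT, 18.6 and 13.4 CPM in ON, and 11.4 and 12.9 CPM in OFF (2.18 ± 0.26, edgeR adjusted p = 0.00156). E2f2, a regulator of entry into S phase, was at 19.3 and 19.8 CPM in WT, 56.9 and 46.1 CPM in ON, and 47.7 and 56.4 CPM in OFF (1.41 ± 0.15, edgeR adjusted p = 0.00111). None of the 4 was called between OFF and ON, and all 4 were called above WT. Their calls held with each library left out, but the list kept 4 calls without WT 2. Genes of growth and metabolism had few calls. None of 77 ribosomal protein genes, 28 ribosome assembly genes, 58 respiratory chain genes and 19 genes of amino acid transport and Myc was called by edgeR, DESeq2 or limma-voom, with 3, 3, 10 and 7 at an unadjusted p under 0.05. Of 24 genes of glucose transport and glycolysis 1 was higher and 1 lower. That is 4.17% in each direction, beside 5.6% higher and 2.29% lower over all genes. The shares called higher among the sterol and G1 genes given below were 11.1% and 13.6%. Slc2a3, a glucose transporter, was at 28.0 and 25.6 CPM in WT and 49.7 and 48.5 CPM in OFF (0.87 ± 0.13, edgeR adjusted p = 0.00446), though not with WT 2 left out (0.0689). Pdk1, a kinase that holds back pyruvate oxidation, was lower (-0.48 ± 0.12, edgeR adjusted p = 0.0408), though not with WT 1, WT 2, OFF 1 or OFF 2 left out (up to 0.328). Of 27 genes of sterol synthesis and uptake 3 enzymes were higher, Sqle, Idi1 and Fdft1, by 0.91, 0.77 and 0.56 on the log2 scale, and none of these calls held without WT 1, WT 2 or OFF 2. Of 22 G1 cyclins and cell cycle inhibitors, Ccnd1, Cdk6 and E2f3 were higher, and 1 of these 3 calls held without WT 1.

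Promoter sequence was read for a pair of these division genes, because many mitotic genes share the promoter elements CCAAT and CHR. The 250 bases before the start site come from RefSeq (GRCm38.p6, minus strand for both), 5′ to 3′ on the gene's strand: Cdk1 at chr10:69352913-69353162 and Mki67 at chr7:135716380-135716629. Capitals mark the CHR element TTTGAA and the CCAAT box (CCAAT, or ATTGG on the other strand).
Cdk1: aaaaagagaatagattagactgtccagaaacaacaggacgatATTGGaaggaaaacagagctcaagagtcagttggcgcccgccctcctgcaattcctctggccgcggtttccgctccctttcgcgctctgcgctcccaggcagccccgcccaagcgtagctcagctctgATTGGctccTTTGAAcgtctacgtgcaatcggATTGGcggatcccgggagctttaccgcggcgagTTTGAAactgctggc
Mki67: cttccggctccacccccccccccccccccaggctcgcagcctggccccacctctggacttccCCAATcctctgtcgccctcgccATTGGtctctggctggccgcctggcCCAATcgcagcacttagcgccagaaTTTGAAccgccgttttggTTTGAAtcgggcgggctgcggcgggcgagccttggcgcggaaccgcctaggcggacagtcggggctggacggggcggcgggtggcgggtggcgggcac
Each of the 2 windows held 2 CHR matches and 3 CCAAT matches. CHR was searched as TTTGAA or TTCAAA and was found in 16.0% of all 32851 promoter windows of that length, and CCAAT in 33.8%. A gene can have several windows, and of all 27025 genes with one, 18.3% had a CHR match and 37.5% a CCAAT match. Of the 19 called proliferation genes with a window, 16 had a CCAAT match and 7 a CHR match. Of the 30 tested proliferation genes with a window, called or not, 26 had a CCAAT match and 10 a CHR match. The shares thus belong to the list and do not set the called genes apart. Over all tested protein-coding genes with a window they were 40.5% and 13.2%. A match is a description of the letters and not a shown binding site. Cdk1, the mitotic kinase, was at 1.97 and 0.814 CPM in WT and 9.13 and 15.7 CPM in OFF (3.15 ± 0.64, edgeR adjusted p = 0.0336). Mki67, which encodes the division marker Ki-67, was at 48.8 and 38.4 CPM in WT and 277 and 475 CPM in OFF (3.11 ± 0.49, edgeR adjusted p = 0.017). Both were named after their values were seen, and neither passed with WT 1, WT 2, OFF 1 or OFF 2 left out (up to 0.286 and 0.354). The RBPJ core motif (TGGGAA or TTCCCA) was in 21.6% of all windows, 19.9% of windows of genes called higher and 19.3% of windows of genes called lower.

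**Figure D4:**
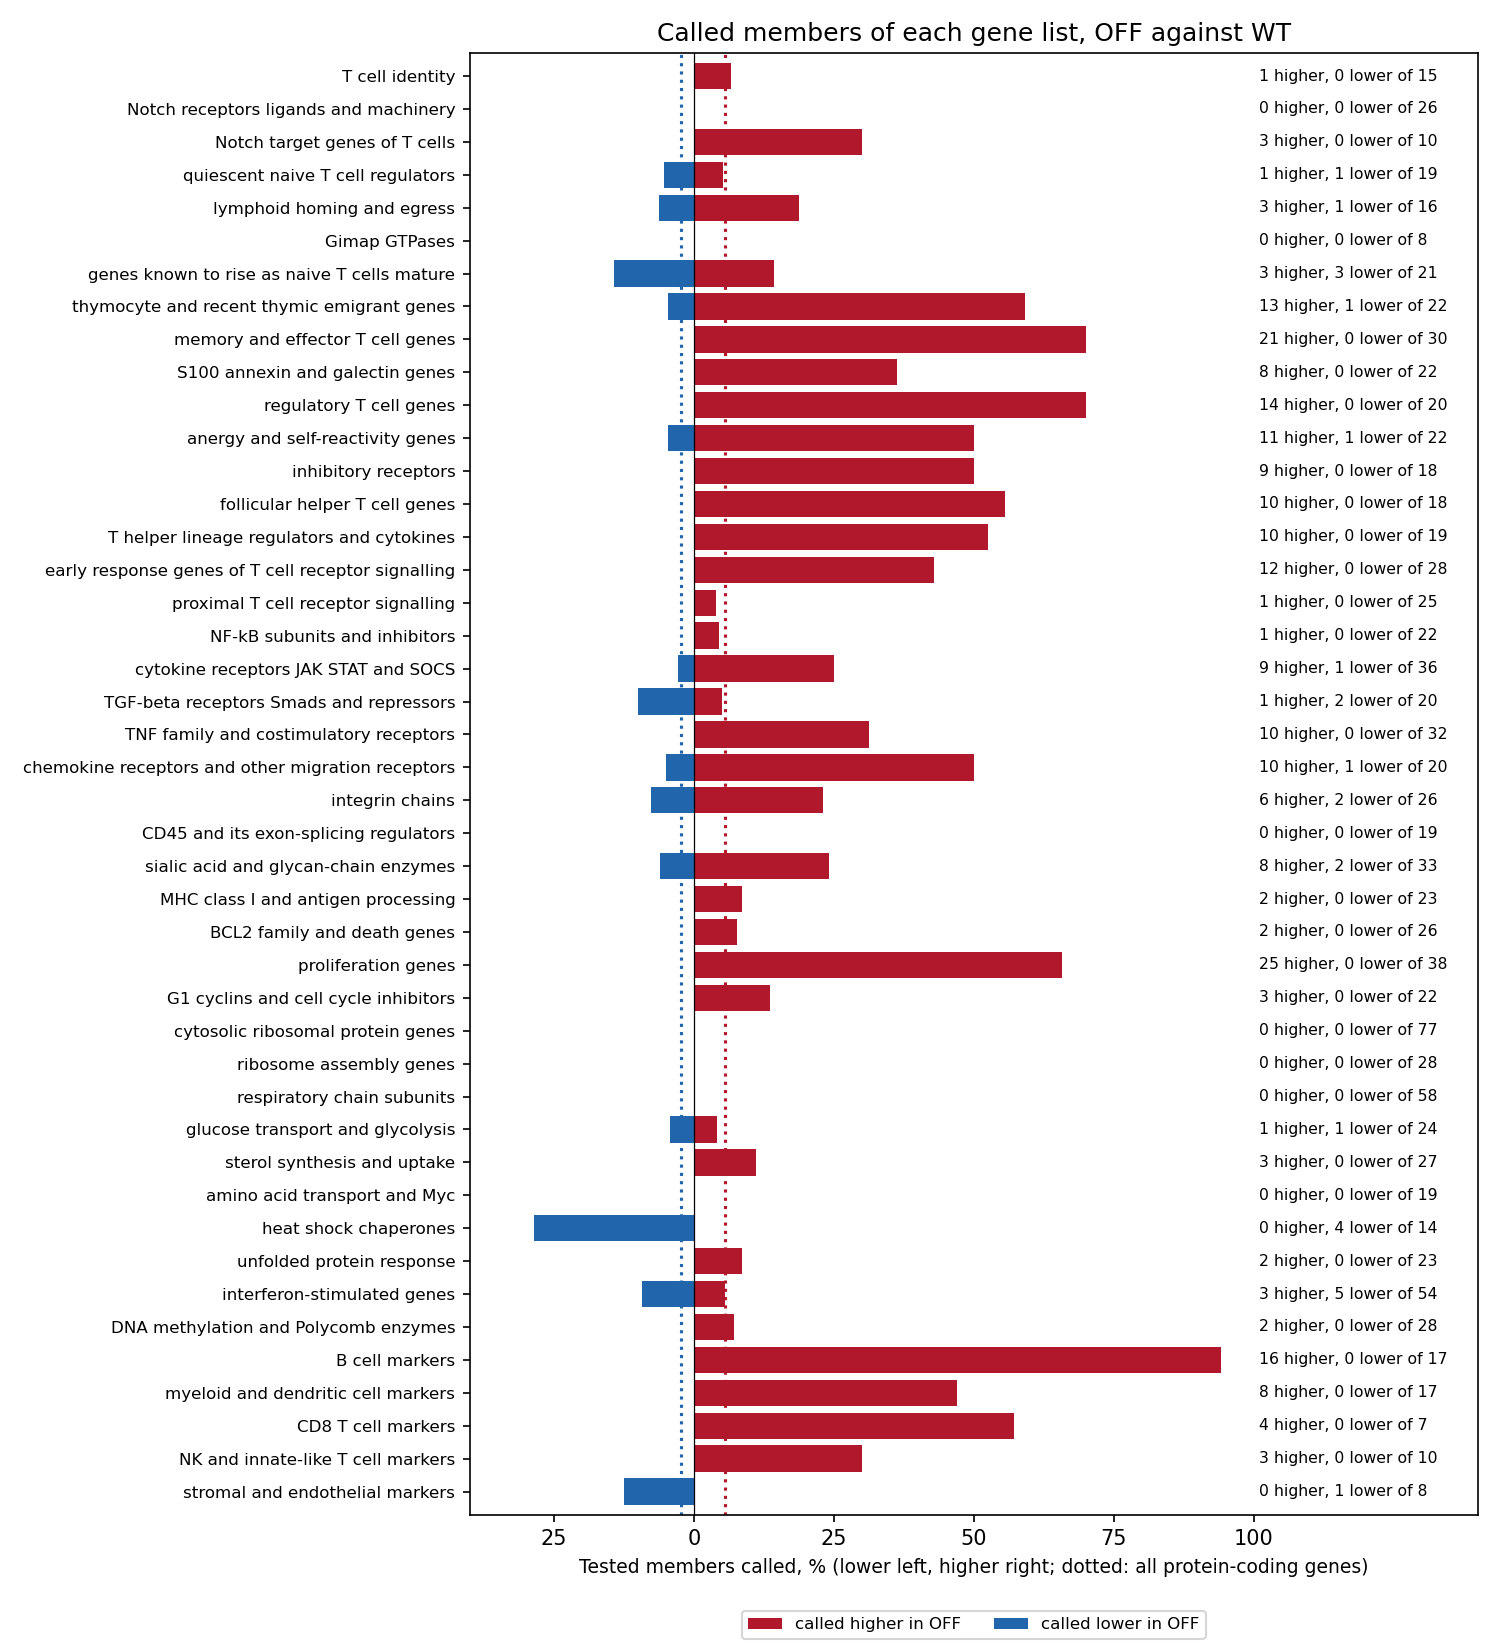
For each gene list with at least 7 tested members, bars give the share of tested members called higher in OFF than WT (red, to the right) and lower (blue, to the left), in percent, with the counts at the right edge. The dotted lines are the shares over all protein-coding genes, 5.6% higher and 2.29% lower; B cell, effector, regulatory and proliferation lists reach farthest right and heat shock chaperones farthest left.

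Heat shock chaperones were the group with the largest share of lower members. Of 14 tested, 4 were lower (28.6%, against 2.29% of all genes) and none higher. A negative log2 fold change was seen in 13, and the median was -0.49. Dnaja1, a cochaperone of HSP70, was at 219 and 287 CPM in WT, 134 and 138 CPM in ON, and 123 and 121 CPM in OFF (-1.05 ± 0.14, edgeR adjusted p = 0.00303). Dnajb1, another, was at 108 and 142 CPM in WT, 56.8 and 74.6 CPM in ON, and 52.1 and 60.6 CPM in OFF (-1.15 ± 0.18, edgeR adjusted p = 0.00568). Hsph1, the nucleotide exchange factor HSP110, was at 112 and 167 CPM in WT, 51.7 and 59.2 CPM in ON, and 63.0 and 64.5 CPM in OFF (-1.13 ± 0.18, edgeR adjusted p = 0.00656). Hspa1b, an inducible HSP70 gene with the near-identical copy Hspa1a, was at 4.55 and 12.7 CPM in WT and 0.289 and 0.601 CPM in OFF (-4.27 ± 0.70, edgeR adjusted p = 0.00914). WT 2 was the highest library for all 4 genes. The calls of Dnaja1, Dnajb1 and Hsph1 were lost without WT 2 (adjusted p of 0.0502, 0.0689 and 0.0673), and that of Hspa1b without either OFF library (up to 0.139). The windows below, again 250 bases before the start from RefSeq (GRCm38.p6, minus strand), show the heat shock element for Hspa1b at chr17:34959239-34959488 and Hsph1 at chr5:149636337-149636586. Capitals mark the motif GAANNTTC or TTCNNGAA, which is found in 12.8% of all windows and in 4 of the 8 windows of the 4 called heat shock genes. By gene, it is found for 14.5% of all genes with a window and for 3 of these 4. It is also found for 6 of the 10 tested heat shock chaperones with a window, called or not.
Hspa1b: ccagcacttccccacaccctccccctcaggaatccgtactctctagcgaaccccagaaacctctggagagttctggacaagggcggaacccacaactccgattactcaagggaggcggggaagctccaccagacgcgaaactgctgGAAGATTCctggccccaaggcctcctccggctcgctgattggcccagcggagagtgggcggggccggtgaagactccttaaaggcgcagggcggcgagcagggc
Hsph1: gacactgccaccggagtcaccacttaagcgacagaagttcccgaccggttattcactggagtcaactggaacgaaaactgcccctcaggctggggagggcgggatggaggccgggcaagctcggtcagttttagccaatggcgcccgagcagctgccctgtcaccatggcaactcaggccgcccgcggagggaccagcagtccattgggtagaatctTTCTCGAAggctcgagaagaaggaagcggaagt

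Interferon-stimulated genes were called in both directions, with 3 of 54 higher, 5 lower and a median log2 fold change of -0.12. The higher share, 5.56%, was that of all genes (5.6%), and the lower share was 9.26% beside 2.29%. No lower call was left without WT 2 and no higher call without WT 1. Ifi208, a DNA-sensor family gene, was at 192 and 218 CPM in WT and 107 and 105 CPM in OFF (-0.95 ± 0.14, edgeR adjusted p = 0.00419), though not with WT 2 left out (0.0651). Gbp3, a guanylate-binding protein, was at 12.9 and 15.2 CPM in WT, 57.1 and 44.3 CPM in ON, and 28.7 and 33.5 CPM in OFF (1.15 ± 0.18, edgeR adjusted p = 0.0058), though not with WT 1 left out (0.0745). In the TGF-beta list Itgb8 was higher and Tgfbr3 and Ltbp1 lower, of 20, and none of the 3 calls held with each library left out (adjusted p up to 0.0684, 0.221 and 0.118). The shares of the TGF-beta list were 5% higher and 10% lower, beside 5.6% and 2.29% over all genes. Among 26 death regulators, Pmaip1 and Bcl2l1 were higher, a share of 7.69% near the 5.6% of all genes. Pmaip1, which encodes the killer protein NOXA, was at 3.17 and 2.33 CPM in WT, 34.7 and 31.6 CPM in ON, and 17.6 and 20.3 CPM in OFF (2.79 ± 0.21, edgeR adjusted p = 0.000173), and that call held with each library left out, while that of Bcl2l1 was lost without any 1 of the 4 libraries (up to 0.171).

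The largest rise by the naming rule was that of Ifitm1, which was not in the interferon-stimulated list. It had 3 counts in all in WT against 311 in OFF (6.59 ± 0.85, edgeR adjusted p = 0.00168). Ifitm2 rose by 5.04 ± 0.79 (edgeR adjusted p = 0.00562), and neither call held with WT 1 or WT 2 left out. Other clear falls were of single genes outside these lists, taken from the largest among genes with a mean of at least 5 CPM, leaving out predicted gene models. Rnf32, which encodes a RING finger protein, was at 7.66 and 7.38 CPM in WT, 0.102 and 0.842 CPM in ON, and 0.404 and 0.421 CPM in OFF (-4.17 ± 0.50, edgeR adjusted p = 0.00177). Ttc28, a tetratricopeptide repeat gene, was at 81.6 and 81.5 CPM in WT, 7.21 and 13.8 CPM in ON, and 26.8 and 20.6 CPM in OFF (-1.78 ± 0.24, edgeR adjusted p = 0.00396). Dapl1, known from resting naive T cells, was at 47.7 and 38.7 CPM in WT, 3.68 and 6.54 CPM in ON, and 10.2 and 10.8 CPM in OFF (-2.05 ± 0.22, edgeR adjusted p = 0.00113). In these 3 genes both RBPJind groups were far below WT. Prdm16, a zinc finger regulator, instead stayed near WT in ON, at 7.26 and 5.25 CPM, against 8.67 and 8.90 CPM in WT and 1.39 and 2.40 CPM in OFF. It was called below WT (-2.21 ± 0.32, edgeR adjusted p = 0.00419) and below ON (-1.72, edgeR adjusted p = 0.0454). Arhgap29, a GTPase-activating protein gene, was at 28.3 and 27.7 CPM in WT and 7.22 and 6.01 CPM in OFF (-2.08 ± 0.27, edgeR adjusted p = 0.00254), and Ntrk3, a neurotrophin receptor, at 26.4 and 27.9 CPM in WT and 8.55 and 10.4 CPM in OFF (-1.52 ± 0.17, edgeR adjusted p = 0.00113). All 6 calls against WT held with each library left out. Predicted gene models were outside the rule for naming genes, and 4 of them, named after their values were seen, were also called lower. Gm10801, Gm10722 and Gm11168 had log2 fold changes of -3.01, -2.68 and -2.46, calls that held with each library left out. Their WT libraries differed: Gm10801 was at 29.4 and 16.3 CPM in WT and 2.31 and 3.37 CPM in OFF. Gm10722 was at 23.7 and 13.8 CPM in WT and 3.18 and 2.64 CPM in OFF. Gm11168 was at 40.9 and 21.9 CPM in WT and 4.45 and 6.97 CPM in OFF. Gm21738 was at 288 and 147 CPM in WT, 124 and 160 CPM in ON, and 22.6 and 35.4 CPM in OFF (-2.91 ± 0.37, edgeR adjusted p = 0.00771), though not with OFF 1 or OFF 2 left out (up to 0.112).

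Position on the genome was described because Rbpj lies on chromosome 5. Of the 15 largest falls named by the rule, which leaves out predicted gene models, 5 were on chromosome 5: Rnf32, Auts2, Sirt4, Galnt9 and Ttc28. Of the 15 largest rises, 1 was there. This chromosome held 822 of the 12667 tested genes and 606 of the 9073 with a mean of at least 5 CPM. Chromosome 5 also had the highest share of genes called lower, 30 of 822 (3.65%), followed by chromosome 1 (3.62%) and chromosome 3 (3.51%), against 2.29% over all. Rbpj itself is at 53466152-53657362 on the plus strand, and Ttc28 at 110879803-111289780 and Rnf32 at 29195992-29228457 are not its close neighbours. Within 5 Mb of Rbpj, 13 genes were tested, none was higher by edgeR, and 1, Sel1l3, was lower (edgeR adjusted p = 0.0447), though not with WT 1, WT 2, OFF 1 or OFF 2 left out (up to 0.338). Within 20 Mb of Rbpj, 10 of 122 tested genes were higher and 4 lower. The cause of the chromosome 5 share was not tested.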

How the data were processed

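The deposited file is 1 table of raw read counts per gene, made by the authors from reads aligned to GRCm38, per the labels' protocols. R 3.6.2 and edgeR appear in the submitters' processing notes. Not given in the sources used here are the aligner, the counter, the annotation release and the strandedness, so antisense and overlapping genes are uncertain. The 5 summary lines of unassigned reads were left out. Counted reads were 33.7% to 39.0% of the reads in the table for the 4 OFF and WT libraries. Gene types came from GENCODE M21, which matched 47310 of 47729 identifiers.

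Counts were fitted with edgeR 4.0.16 (R 4.3.3): filterByExpr by group (minimum count 10, minimum total 15), TMM scaling, and a robust quasi-likelihood fit of all 6 libraries with 3 residual degrees of freedom. P-values were Benjamini-Hochberg adjusted over 15780 genes. The biological coefficient of variation was 15.7%. The test was tried on simulated counts first. Those counts had the same spread setting in every group, unlike the real replicates, so the trial does not gauge the calls given here. Alternatives used DESeq2 1.42.0 and limma 3.58.1 (voom), other scalings and filters, and left out each library. Intervals on counts are exact and cover counting error only.

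Members, gene lists and tests were chosen with earlier results of these data known. Genes are named by rule, leaving out predicted gene models, antigen receptor segments, globins and genes of the mitochondrial genome: the 15 largest rises and falls at 5 CPM or more without overlap, the 10 most abundant called genes, up to 4 called genes of smallest p in each list, and a set of markers. Any other gene named was chosen after its values were seen, including Cd2ap, Itgb6, Itga8, Ly6c2, Dntt, Rag1, Rag2, Ptcra, Cd8b1, Ighm, Cdk1 and Mki67. Promoter windows were matched by symbol for 9972 of 12667 tested genes. Replicates differed by more than sampling noise (chi-square divided by its degrees of freedom: WT 10.1, ON 70.6, OFF 20.2). ON, the most variable group, also enters the shared estimate of spread. The labels state no pairing of libraries, and the fit has no block. Same-numbered libraries of WT and OFF did not deviate together (correlation -0.212). The replicate numbers may be arbitrary, so this value cannot exclude a pairing.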

Additional observations from a re-analysis of the deposited data

How the results depend on the processing

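The count of 999 genes called between OFF and WT (709 higher, 290 lower) was 932 (642, 290) with RLE scaling, 925 (601, 324) with upper quartile scaling and 1112 (849, 263) with DESeq2. The median of all genes shifted by -0.02 and -0.08 under the 2 scalings. Limma-voom called 537 genes (416 higher, 121 lower). Without a filter the lower count was 158, with a mean of at least 1 CPM 148, and with only the 4 OFF and WT libraries 474. With only those 4 libraries 1350 genes were called in all (876 higher). Genes with a mean of at least 5 CPM in the higher group, an alternative added after seeing the data, gave 103 lower. Leaving out each library gave 211 to 1481 genes in all, 158 to 1117 higher and 29 to 406 lower, with the smallest counts without WT 1, WT 2 or OFF 2. With the replicate number as a block, a pairing that the labels do not state, 618 genes were called (462 higher, 156 lower). Crossing the numbers, added after seeing the data because the correlation of WT and OFF was negative, gave 1916 (1285 higher, 631 lower). Of 153 named and tested genes 141 were called, and 58 of these held under each of the 15 settings other than crossing in which the gene was fitted. No called gene changed sign. The uncalled Itga2b ranged from -0.85 to 0.075 and Klf2 from -0.12 to 0.060 over the libraries left out, and Klf2 was at 0.043 with no filter. The cause was not tested. A group left with 1 library borrows its spread from the rest, and differences at low counts are not well determined.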

Other observations

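Outside the protein-coding genes, 3113 genes were tested and 32 were higher and 47 lower in OFF than in WT by edgeR. Gt(ROSA)26Sor, the transcript of a locus widely used for inserting transgenes (chromosome 6, 113067428-113077333, GRCm38), was at 10.1 and 8.14 CPM in WT, 0.613 and 0.644 CPM in ON, and 0.520 and 0.601 CPM in OFF. It fell by 4.01 on the log2 scale in OFF (edgeR adjusted p = 0.000406), and this call held with each library left out. The labels do not name the transgenes of RBPJind, and the annotation gives Gt(ROSA)26Sor as antisense RNA, which unstranded counts would not separate from an overlapping gene. Both RBPJind groups were low, and the difference between them was not called (edgeR adjusted p = 0.903).

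The immunoglobulin light chain gene Igkc was at 0.837 and 1.80 CPM in WT, 10.4 and 4.01 CPM in ON, and 14.8 and 18.0 CPM in OFF (edgeR adjusted p = 0.00457 against WT). This call was lost without WT 1 or OFF 2, with an adjusted p of up to 0.0705. Of 7 immunoglobulin constant genes tested, 4 were higher in OFF. None of the 78 T cell receptor variable genes tested was called by edgeR.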
